A study of Mus musculus with 9 samples.

Results

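Pericytes wrap the small vessels of the eye, and their genes were followed in the anterior segment of newborn Col4a1 mutant mice. The 8 genes were Pdgfb, Pdgfrb, Abcc9, Kcnj8, Cspg4, Anpep, Mcam and Rgs5, chosen by symbol as pericyte channel, receptor, surface and signalling genes together with the recruiting ligand. They are 8 of the 35275 genes in the count table, and all 8 had enough counts to be tested. The tissue was the anterior segment (cornea, iris, ciliary body and drainage structures, with the lens removed) at postnatal day 0. The 6 mutant libraries came from heterozygotes, Col4a1+/G1344D, in which 1 copy of the type IV collagen chain gene Col4a1 carries the missense change G1344D. The 3 wildtype libraries came from mice labelled Wt. Each library pooled 4 eyes from 2 mice, so a p-value measures the spread between pools, and the labels give neither sex nor strain. The allele is in the germline, so every cell type of the dissected tissue carries it.

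Endothelial cells of growing vessels release the growth factor PDGF-B, and pericyte precursors that carry its receptor, PDGFR-beta, follow it onto the vessel wall. Pericytes share a basement membrane with the endothelium, and type IV collagen is its main collagen. Many pericytes also carry a potassium channel that opens when ATP is low, built from a pore subunit encoded by Kcnj8 and a sulfonylurea receptor encoded by Abcc9. None of the 8 genes is restricted to pericytes. Pdgfb is made by endothelium and platelets, Pdgfrb and Anpep also by fibroblasts, Cspg4 by glial and cartilage precursors, Mcam by endothelium, and Anpep by myeloid cells.

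Of the 8 genes, 6 were higher in the mutant, 0 were lower and 2 did not pass the test. The genes that rose were Abcc9, Cspg4, Pdgfb, Pdgfrb, Anpep and Mcam, with folds between 2.36 for Abcc9 and 1.22 for Mcam. Levels are given as CPM, the gene's counts as a share of the library's size, scaled as edgeR's CPM does after TMM normalization. Kcnj8 and Rgs5 did not pass. The test was edgeR's quasi-likelihood test on the deposited counts, adjusted over 15825 genes by Benjamini-Hochberg at 0.05, and over all of these genes 9.7% were called higher and 9.47% lower. In 5 of the 8 genes every mutant library lay above every wildtype library, which held for 10.8% of all tested genes. The median log2 fold change of the 8 was 0.51, where the median of all tested genes was 0. In bulk tissue, more cells of a type and more RNA per cell cannot be told apart.

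The libraries held between 25995340 and 35306935 counts. They fell into 2 sets by the share of counts on Gm42418, a locus that overlaps ribosomal RNA. This share was between 4.11% and 6.91% in 5 mutant libraries and 4.54% in wildtype 1, but 0.0673% in mutant 2 and 0.0663% and 0.0708% in wildtype 2 and 3. The genotypes are split unevenly between the sets, so values within each set are given for the 8 genes and the main lists. Without wildtype 1, 538 genes passed the test in place of 3034. Markers of corneal stroma, surface epithelium and pigment cells were abundant in every library. Long genes ran higher in the mutant as a class: of 2648 tested genes with at least 8000 bases of exon, 25.8% were called higher, against 3.19% of 4761 genes with 2000 to 4000 bases. Abcc9 and Cspg4 lie in the first class, with 8373 and 11931 bases.

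Abcc9 and Kcnj8 encode subunits of the same channel and are neighbours on chromosome 6, on the same strand and 16247 bases apart. Only 1 of the pair rose, and so the 250 bases before the RefSeq start of each (GRCm38.p6) are shown, with those of Cspg4, the gene with the second highest fold, and of Rgs5, which did not pass. Capitals mark matches on either strand to GGGCGG, the core of a GC box, and to TGGGAA, the core bound by the Notch partner RBPJ. The windows are chr6:142702275-142702524 on the minus strand for Abcc9, chr6:142571615-142571864 on the minus strand for Kcnj8, chr9:56864854-56865103 on the plus strand for Cspg4 and chr1:169655251-169655500 on the plus strand for Rgs5.
Abcc9: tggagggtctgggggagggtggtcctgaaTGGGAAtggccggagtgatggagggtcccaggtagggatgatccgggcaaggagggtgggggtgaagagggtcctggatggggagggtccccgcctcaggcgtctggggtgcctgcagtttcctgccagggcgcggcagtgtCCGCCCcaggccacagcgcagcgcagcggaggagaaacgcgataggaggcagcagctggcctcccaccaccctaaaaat
Kcnj8: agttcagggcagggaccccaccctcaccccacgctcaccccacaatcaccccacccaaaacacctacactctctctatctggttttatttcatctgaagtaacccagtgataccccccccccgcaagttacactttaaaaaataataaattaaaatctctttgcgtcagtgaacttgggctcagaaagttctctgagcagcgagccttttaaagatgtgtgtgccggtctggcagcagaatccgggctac
Cspg4: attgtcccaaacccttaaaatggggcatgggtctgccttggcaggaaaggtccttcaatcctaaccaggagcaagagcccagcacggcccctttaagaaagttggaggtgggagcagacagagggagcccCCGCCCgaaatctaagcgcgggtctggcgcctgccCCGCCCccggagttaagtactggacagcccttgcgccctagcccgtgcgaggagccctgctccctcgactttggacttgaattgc
Rgs5: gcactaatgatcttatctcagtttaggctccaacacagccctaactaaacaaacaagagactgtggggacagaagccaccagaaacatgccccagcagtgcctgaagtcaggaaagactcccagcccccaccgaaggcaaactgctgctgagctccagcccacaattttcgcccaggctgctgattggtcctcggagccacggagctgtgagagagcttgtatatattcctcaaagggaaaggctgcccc
The Abcc9 window held 1 GC box core, 79 bases before the start, and 1 RBPJ core, 221 bases before it. In the Cspg4 window 2 GC box cores were found, and in the windows of Anpep and Mcam, not shown, 3 and 5, while neither motif was found in the windows of Kcnj8 and Rgs5. The RBPJ core was also absent from the windows of Cspg4, Anpep and Mcam, which rose. Pdgfb and Pdgfrb, which rose too, had no window. Any link between the motifs and the rise was not tested. Of 32851 promoter windows of this length, 32.7% held the GC box core and 21.6% the RBPJ core. The motifs do not overlap each other here, and a match or its absence is a description of these letters only. An E box, CANNTG, was found in the Abcc9, Kcnj8, Anpep and Mcam windows (66.2% of all windows), and the TATA core TATAAA and the CArG box in none of the 6 windows available (12.4% and 1.47% of all). G and C made up 66.8% of the Abcc9 window and 60.4% of the Cspg4 window, against 49.2% for Kcnj8 and 53.6% for Rgs5.

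The ligand came out higher. Pdgfb (ENSMUSG00000000489, chromosome 15, 79995874 to 80014977, GRCm38, minus strand) had a lowest, median and highest level of 31.6, 36.9 and 38.3 CPM in the 6 mutant libraries, against 21.6, 24.3 and 23.3 CPM in wildtype 1, 2 and 3. No mutant library overlapped the wildtype range, and the spread within each group was narrow. The means were 35.8 ± 2.78 CPM in mutants (SD, n = 6) and 23.1 ± 1.40 CPM in wildtypes (SD, n = 3), 1.55 times as high in mutants (log2 fold change 0.63, SE 0.0977; edgeR adjusted p = 0.00122). With 1 library left out at a time the log2 fold change of Pdgfb stayed between 0.59 and 0.68, and it was called each time.

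Pdgfrb, the tyrosine kinase receptor that answers PDGF-B (ENSMUSG00000024620, chromosome 18, 61045150 to 61085061, plus strand), had 153, 170 and 204 CPM as the lowest, median and highest mutant values. Wildtype 1, 2 and 3 had 105, 140 and 111 CPM. No wildtype library reached the mutant range; wildtype 2 came closest to it, and mutant 4 was the highest. Pdgfrb averaged 173 ± 16.6 CPM in mutants and 119 ± 18.9 CPM in wildtypes (SD, n = 6 and 3), 1.46 times as high in mutants (log2 fold change 0.54, SE 0.102; edgeR adjusted p = 0.00337).

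The sulfonylurea receptor subunit gene Abcc9 (ENSMUSG00000030249, chromosome 6, 142587862 to 142702315, minus strand) showed the highest fold of the 8. Its lowest, median and highest mutant levels were 35.2, 41.8 and 56.2 CPM, and wildtype 1, 2 and 3 had 16.6, 21.7 and 17.2 CPM. The lowest mutant library, mutant 5, was well above the highest wildtype library. Means were 43.6 ± 7.01 CPM in mutants and 18.5 ± 2.82 CPM in wildtypes (SD, n = 6 and 3), 2.36 times as high in mutants (log2 fold change 1.24, SE 0.139; edgeR adjusted p = 0.000105). Of all tested genes, 98.8% had a lower fold change. Once the trend of expression on exon length was removed from each library, log2 for Abcc9 was 1.08 (edgeR adjusted p = 2.57e-05). Its exons share 158 bases with an antisense gene, 5330439B14Rik, and no source used here says whether reads were counted by strand.

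Kcnj8, the pore subunit gene (ENSMUSG00000030247, chromosome 6, 142564837 to 142571614, minus strand), gave 23.3, 24.9 and 27.7 CPM as lowest, median and highest mutant values and 24.1, 21.9 and 22.2 CPM in wildtype 1, 2 and 3. The groups overlapped: mutants 1 and 4 lay below wildtype 1. Kcnj8 averaged 25.2 ± 1.65 CPM in mutants and 22.7 ± 1.19 CPM in wildtypes (SD, n = 6 and 3), a log2 difference of 0.15 with an SE of 0.0979 (edgeR adjusted p = 0.292). The other channel subunit genes were scarce: Kcnj11, which encodes a related pore subunit, averaged 0.249 ± 0.0966 CPM in mutants and 0.271 ± 0.124 CPM in wildtypes, and Abcc8, which encodes the other sulfonylurea receptor, had 0.14 and 0.172 CPM and too few counts to be tested.

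**Figure D1:**
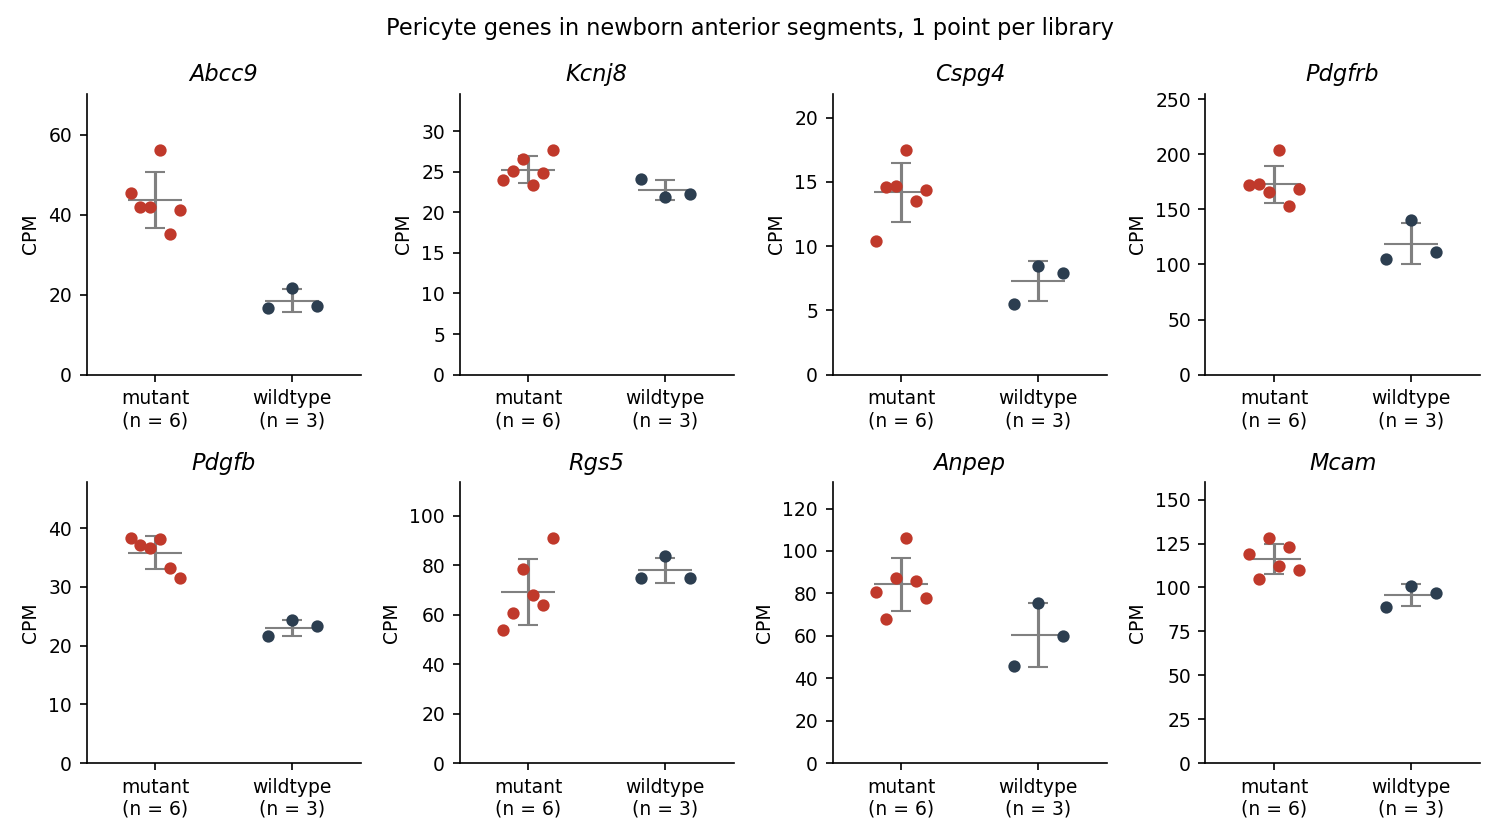
CPM (y axis, starting at 0) of the 8 pericyte genes in each library, with mutant libraries in red at the left (n = 6) and wildtype libraries in dark blue at the right (n = 3). Grey lines give the mean and SD; the groups do not overlap for Abcc9, Cspg4, Pdgfrb, Pdgfb and Mcam.

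Among the surface genes, Cspg4, which encodes a large chondroitin sulfate proteoglycan of pericytes (ENSMUSG00000032911, chromosome 9, 56865033 to 56899870, plus strand), was the least abundant and rose the most. Mutant libraries ran from 10.4 over a median of 14.5 to 17.5 CPM, and wildtype 1, 2 and 3 had 5.49, 8.44 and 7.91 CPM. Mutant 1 was the lowest mutant library and still lay above wildtype 2. Cspg4 averaged 14.2 ± 2.31 CPM in mutants and 7.28 ± 1.57 CPM in wildtypes (SD, n = 6 and 3), 1.95 times as high in mutants (log2 fold change 0.96, SE 0.178; edgeR adjusted p = 0.00312). It had the longest exons of the 8, and with the length trend removed its log2 fold change was 0.74 (edgeR adjusted p = 0.00402).

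Anpep encodes aminopeptidase N, a peptidase on the outer face of the cell (ENSMUSG00000039062, chromosome 7, 79821803 to 79861059, minus strand). Its mutant levels were 68.0, 83.1 and 106 CPM (lowest, median and highest), and wildtype 1, 2 and 3 had 45.6, 75.7 and 59.8 CPM. Mutant 2 fell below wildtype 2, so the groups overlapped. Means were 84.2 ± 12.8 CPM in mutants and 60.4 ± 15 CPM in wildtypes (SD, n = 6 and 3), 1.39 times as high in mutants (log2 fold change 0.48, SE 0.146; edgeR adjusted p = 0.0312). Anpep was not called without wildtype 1 (log2 0.31), wildtype 3 (0.47) or mutant 3 (0.47), nor with exon length removed (adjusted p = 0.0667). Within the libraries with little Gm42418 its log2 difference was 0.01 (adjusted p = 0.996) and within the others 0.93 (adjusted p = 0.0186), with 1 mutant in the first set and 1 wildtype in the second.

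Mcam encodes an adhesion molecule of the immunoglobulin family on mural and endothelial cells (ENSMUSG00000032135, chromosome 9, 44134469 to 44142727, plus strand). Mutant libraries had 105, 115 and 128 CPM as lowest, median and highest, against 88.8, 101 and 96.7 CPM in wildtype 1, 2 and 3. The groups did not overlap, but mutant 2 and wildtype 2 were close. Mcam averaged 116 ± 8.69 CPM in mutants and 95.5 ± 6.16 CPM in wildtypes (SD, n = 6 and 3), 1.22 times as high in mutants (log2 fold change 0.28, SE 0.082; edgeR adjusted p = 0.0248). It lost its call without wildtype 1 (log2 0.23), wildtype 3 (0.29) or mutant 3 (0.25). Within the set with little Gm42418 the log2 difference of Mcam was 0.09 (adjusted p = 0.886), and within the other set 0.41 (adjusted p = 0.0762).

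Rgs5 encodes a regulator of G protein signalling and is widely used to mark pericytes (ENSMUSG00000026678, chromosome 1, 169655501 to 169695813, plus strand). It was the only one of the 8 with a lower mean in the mutant. Mutant libraries spread from 53.7 over a median of 66.0 to 91.0 CPM, while wildtype 1, 2 and 3 had 75.0, 83.9 and 75.0 CPM. Mutants 1, 2, 4 and 5 lay below all wildtype libraries, mutant 3 lay among them and mutant 6 lay above them. Means were 69.3 ± 13.4 CPM in mutants and 78.0 ± 5.11 CPM in wildtypes (SD, n = 6 and 3), a log2 difference of -0.17 with an SE of 0.130 (edgeR adjusted p = 0.384).

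Levels can be set against each other between genes only per exon length, here CPM per kilobase of all annotated exons. In mutants the order of mean levels per kilobase was Mcam (34.7 ± 2.6), Pdgfrb (31.6 ± 3.03), Anpep (20.4 ± 3.09), Rgs5 (15.2 ± 2.96), Kcnj8 (9.91 ± 0.647), Pdgfb (8.61 ± 0.669), Abcc9 (5.21 ± 0.838) and Cspg4 (1.19 ± 0.194). In the mutant order 3 pairs of neighbours overlapped in range: Mcam with Pdgfrb, Anpep with Rgs5, and Kcnj8 with Pdgfb. In wildtypes Rgs5 (17.1 ± 1.12) stood above Anpep (14.6 ± 3.64), with overlapping ranges, and the other places were the same. Wildtype Mcam (28.5 ± 1.84) and Pdgfrb (21.7 ± 3.46) did not overlap, nor did wildtype Kcnj8 (8.92 ± 0.466) and Pdgfb (5.55 ± 0.336). Abcc9 stood at 2.21 ± 0.337 CPM per kilobase in wildtypes and Cspg4 at 0.61 ± 0.131. These SDs are over 6 mutant and 3 wildtype libraries.

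**Figure D2:**
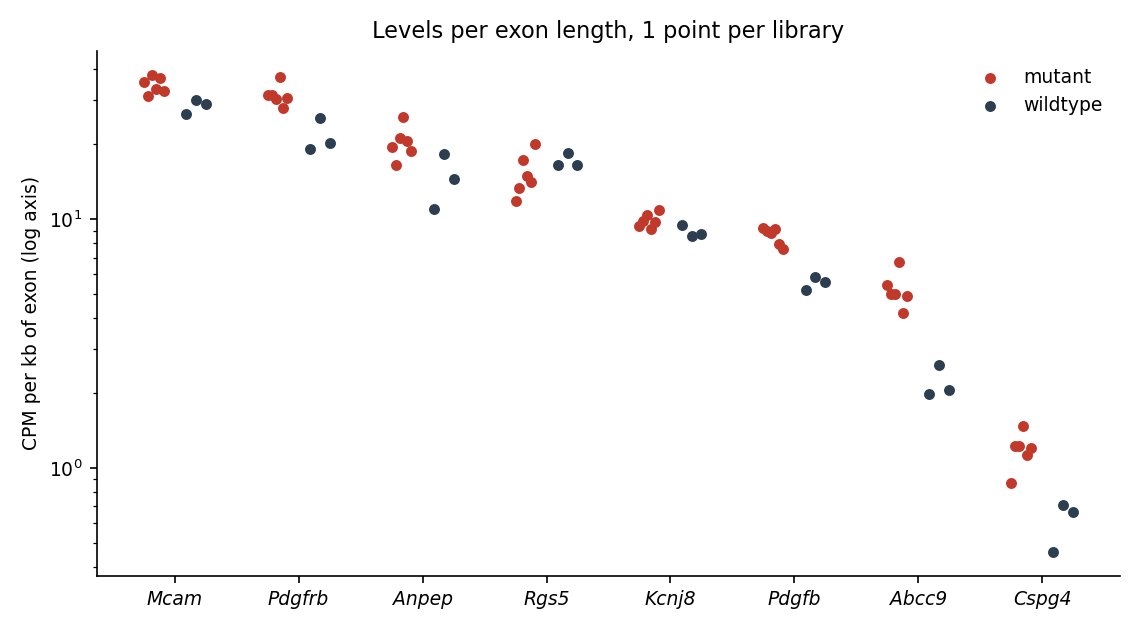
CPM per kilobase of exon (log axis) of each pericyte gene, ordered by the mutant mean, with 1 point per library, mutant in red and wildtype in dark blue. Mcam and Pdgfrb lie highest, and Cspg4 lies lowest, at 1.19 in mutants and 0.61 in wildtypes on average.

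Ratios of gene pairs within a library ask whether their members changed unequally, and 4 were tested by exact two-sided permutation over all 84 splits, adjusted over the 4. The CPM ratio of Abcc9 to Kcnj8, the subunits of the channel, ran from 1.42 over a median of 1.62 to 2.41 in mutants, and was 0.689, 0.993 and 0.775 in wildtype 1, 2 and 3. Each of the 6 mutant ratios was above the 3 wildtype ratios, and Abcc9 had the larger value of the pair in each mutant library and the smaller in each wildtype library. The mean log2 ratio was 0.78 ± 0.28 in mutants and -0.30 ± 0.27 in wildtypes, a difference of 1.08 (exact p = 0.0119, the smallest that 84 splits can give; adjusted p = 0.0238). With the exon length trend removed this difference was 0.82 (exact permutation, adjusted p = 0.0238). These are ratios of CPM with no correction for exon length, so they compare libraries, not the number of subunits. Without any 1 wildtype library the smallest exact permutation p is 0.0357, and the adjusted p of this ratio and of Rgs5 over Cdh5 is then 0.0714.

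No difference passed the test for receptor over ligand. The CPM ratio of Pdgfrb to Pdgfb was between 4.50 and 5.33 in mutants, with a median of 4.64, and 4.88, 5.77 and 4.73 in wildtype 1, 2 and 3. The groups overlapped, with a log2 difference of -0.08 between means of 2.27 ± 0.11 in mutants and 2.35 ± 0.15 in wildtypes (exact permutation p = 0.405, adjusted p = 0.405).

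Cdh5, the cadherin of endothelial junctions, served as the endothelial measure, and it was chosen with its own rise known. It averaged 148 ± 13.2 CPM in mutants and 92.9 ± 12.8 CPM in wildtypes (SD, n = 6 and 3). The CPM ratio of Pdgfrb to Cdh5 ran from 1.05 over a median of 1.18 to 1.30 in mutants and was 1.31, 1.32 and 1.20 in wildtype 1, 2 and 3, a log2 difference of -0.13 (exact permutation p = 0.0833, adjusted p = 0.111). Rgs5 over Cdh5 behaved otherwise. This ratio was between 0.375 and 0.635 in mutants, with a median of 0.446, against 0.932, 0.790 and 0.815 in wildtypes, and no mutant library reached the wildtype range. The log2 difference was -0.87, between -1.11 ± 0.28 in mutants and -0.25 ± 0.13 in wildtypes (exact permutation p = 0.0119, adjusted p = 0.0238). Cdh5 alone had a log2 fold change of 0.67, against a median of 0.39 for the 17 endothelial markers, and Rgs5 had -0.17. The choice of Cdh5 thus set much of this difference, and the p-value is no separate support. Ratios to other endothelial genes were not tested.

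**Figure D3:**
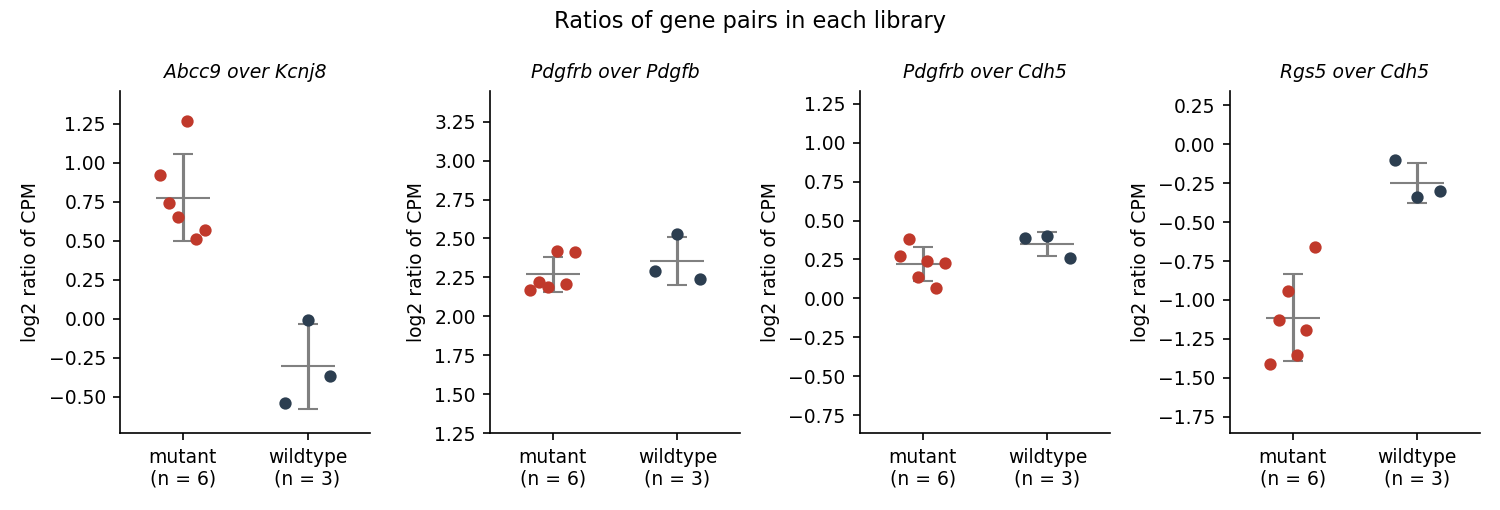
Log2 ratio of the CPM of gene pairs in each library, mutant in red at the left and wildtype in dark blue at the right, with mean and SD in grey; all panels span the same number of log2 units. Abcc9 over Kcnj8 is higher in all 6 mutant libraries and Rgs5 over Cdh5 lower in all 6, while both Pdgfrb ratios overlap between the groups.

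Apart from Anpep and Mcam, the called genes kept their direction and their call in the other fits. Abcc9 had log2 fold changes between 1.15 and 1.37 with 1 library left out, Cspg4 between 0.80 and 1.09, and Pdgfrb between 0.46 and 0.69. Within the 3 libraries with little Gm42418, log2 was 1.1 for Abcc9, 0.84 for Cspg4, 0.64 for Pdgfb and 0.47 for Pdgfrb, and within the other 6 it was 1.40, 1.35, 0.71 and 0.71 in the same order. All 8 of these values passed the edgeR test, with the lone library of a genotype assumed to vary like the other group.

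**Figure D4:**
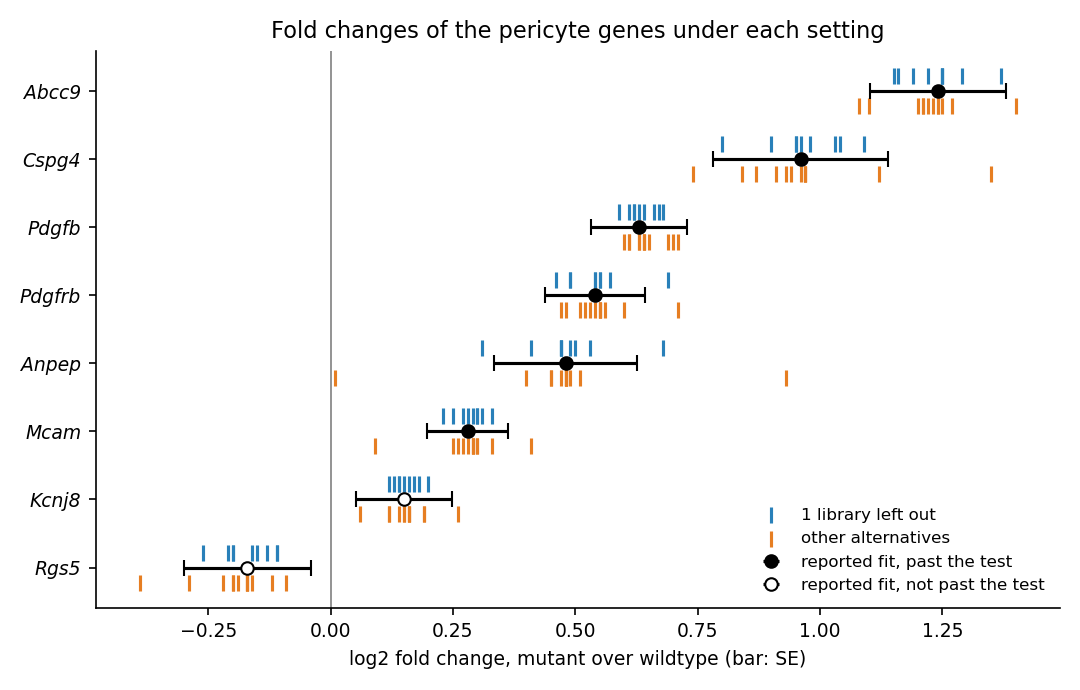
Log2 fold change of mutant over wildtype for each pericyte gene (circle, with its SE as a bar; filled where it passed the edgeR test), with blue ticks for the 9 fits that each leave out 1 library and orange ticks for the other alternatives. Abcc9 and Cspg4 stay farthest to the right, Anpep ranges from 0.01 to 0.93, and Rgs5 alone stays below 0.

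For each gene that rose, the 3 tested genes with the most similar profile were sought among 13152 candidates, by the root mean square difference of centred log2 CPM over the 9 libraries. Nearest to Abcc9 were Abca1 (0.106), Abcg1 (0.139) and C4b (0.145), the first of which averaged 126 ± 18.1 CPM in mutants and 61.4 ± 8.46 CPM in wildtypes. Abca1 and Abcg1 encode cholesterol exporters and C4b a complement component. The receptor Pdgfrb was nearest to Arhgef11 (0.0613), Erbb3 (0.0689) and Tpcn1 (0.0705), and the ligand Pdgfb to Ank (0.068), Spata13 (0.0689) and Erbb3 (0.075), so Erbb3, a receptor gene of the glial lineage, stood near both. Cspg4 was nearest to Dip2b (0.142), Lrrc58 (0.145) and Lpp (0.148), Anpep to Plagl2 (0.0902), Parp4 (0.0979) and Ckap5 (0.0982), and Mcam to Coro1c (0.0319), Scara5 (0.0557) and Slc27a1 (0.0578). Scara5 and Slc27a1 did not pass the test. Arhgef11 and Lrrc58 share 12.5% and 12.7% of their exon length with other genes, so their reads are uncertain.

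Other pericyte markers were higher in part. Of 22 genes, all tested, 6 rose and 0 fell, and the list's median was 0.35 (log2). Over all tested genes, 9.7% were called higher and 9.47% lower, the shares to set beside this list and those that follow. Notch3, the Notch receptor of mural cells, averaged 195 ± 19.4 CPM in mutants and 147 ± 7.32 CPM in wildtypes (edgeR adjusted p = 0.00682). Nes, the intermediate filament gene of immature cells, averaged 58.9 ± 4.50 and 42.5 ± 2.76 CPM in mutants and wildtypes (adjusted p = 0.0038), and Heyl, a Notch target, 68.4 ± 11.6 and 49.0 ± 3.34 CPM (adjusted p = 0.0159). The vitronectin gene Vtn, a marker of brain pericytes, was near the limit of detection, with 167 counts over the mutant libraries and 9 over the wildtype libraries. Among the markers not called, Ndufa4l2, Cox4i2 and Atp13a5 had lower means in mutants (log2 -0.22, -0.37 and -0.30). Higd1b was nearly level (log2 0.05), and the other markers not called had a log2 above 0. Without wildtype 1, 2 of these 22 genes were called higher, and Notch3 and Heyl were not. Over all tested genes, 303 of 16159 were then called higher and 235 lower, so calls fell in general. Within the set with little Gm42418 the list's median log2 was 0.31, and within the other set 0.39, with 1 library of a genotype in each set.

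In the rest of the PDGF family, 1 of 5 genes rose and 0 fell. This was the receptor gene Pdgfra, a marker of mesenchymal and glial precursors, at 167 ± 21.6 CPM in mutants and 124 ± 13.3 CPM in wildtypes (SD, n = 6 and 3; edgeR adjusted p = 0.0113), a call that several alternatives ended. Pdgfra was not called without wildtype 1 or 3 (log2 0.39 each), with exon length removed (0.24, adjusted p = 0.0665), with a covariate for the Gm42418 share (adjusted p = 0.0514), or within the sets with little Gm42418 (0.25, adjusted p = 0.412) and much of it (0.54, adjusted p = 0.076). The ligand genes Pdgfa and Pdgfd and the receptor-like gene Pdgfrl did not pass (log2 0.17, 0.24 and -0.23). Pdgfa shares 813 bases, 26.1% of its exon length, with an antisense gene, so its reads are uncertain. Of 15 genes that carry the receptor signal or process the ligand, 6 rose and 0 fell, with a median log2 of 0.25, and with the exon length trend removed 4 were called and the median was 0.11. Lrp1, which encodes a co-receptor that binds PDGFR-beta, averaged 426 ± 89.0 CPM in mutants and 250 ± 33.0 CPM in wildtypes (adjusted p = 0.0035). The docking protein gene Gab1 averaged 93.8 ± 8.56 and 64.4 ± 7.69 CPM in mutants and wildtypes, the exchange factor gene Sos1 44.1 ± 7.80 and 30.9 ± 1.34 CPM, and the kinase subunit gene Pik3r1 144 ± 13 and 116 ± 9.52 CPM. Without wildtype 1, 2 of the 15 were called higher, Gab1 and Lrp1, against 303 of 16159 over all tested genes. Within the sets with little and much Gm42418 the median log2 of the 15 was 0.17 and 0.31.

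Among genes for other signals between endothelium and mural cells, 12 of 19 were higher and 0 lower, with a median log2 of 0.37. Edn1, the gene for the vasoconstrictor endothelin, averaged 11.9 ± 1.71 CPM in mutants and 7.18 ± 0.314 CPM in wildtypes (edgeR adjusted p = 0.00517). The endothelial receptor gene Tie1 averaged 109 ± 8.53 and 78.9 ± 12.1 CPM in mutants and wildtypes, the sphingosine phosphate receptor gene S1pr1 34.8 ± 3.90 and 24.7 ± 1.12 CPM, and N-cadherin, Cdh2, which joins endothelium and pericytes, 100 ± 6.03 and 75.7 ± 9.48 CPM. Among the genes not called, Angpt1, Sphk1 and Hbegf had lower means in mutants (log2 -0.22, -0.13 and -0.10), and the others had a log2 above 0. Angpt1 shares 14.2% of its exon length with an antisense gene, so its reads are uncertain. Without wildtype 1, 2 of the 19 were called, S1pr1 and Edn1, and without wildtype 3, 5 were called. Over all tested genes, 303 of 16159 were called higher without wildtype 1. The median log2 of the 19 was 0.24 within the set with little Gm42418 and 0.53 within the other set.

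Endothelial markers were also higher in part, with 10 of 17 higher, 1 lower and a median log2 of 0.39. Their summed level was 1058 to 1177 CPM in mutants against 832 to 976 CPM in wildtypes. Vwf, the von Willebrand factor gene, averaged 82.2 ± 16.7 CPM in mutants and 32.1 ± 2.50 CPM in wildtypes (edgeR adjusted p = 8.07e-05), and the VEGF receptor gene Kdr 128 ± 20.9 and 85.2 ± 8 CPM. The transcription factor gene Erg was lower, with 133 ± 14.5 CPM in mutants and 189 ± 32.2 CPM in wildtypes, but it was not called within either Gm42418 set (log2 -0.35 with little, -0.47 with much). Of the contractile genes of smooth muscle, 5 of 11 were lower and 0 higher, with a median log2 of -0.03. Their summed level was 1460 to 1638 CPM in mutants against 1817 to 2003 CPM in wildtypes. In bulk tissue these genes do not separate smooth muscle of the vessel wall, the other mural cell, from that of iris and ciliary body. Actg2, a smooth muscle actin gene, averaged 33.5 ± 2.55 CPM in mutants and 62.1 ± 3.72 CPM in wildtypes (adjusted p = 3.06e-05), and Cnn1, the calponin gene, 30.2 ± 3.86 and 50 ± 3.92 CPM. Acta2 and Myh11 also passed, at 554 ± 71.6 and 260 ± 31.2 CPM in mutants against 696 ± 5.61 and 332 ± 39.2 CPM in wildtypes, but neither was called without wildtype 2 or wildtype 3, nor Acta2 without wildtype 1, mutant 3 or mutant 6. Without wildtype 1, 2 endothelial genes were called higher and 1 lower, and 3 smooth muscle genes lower. Over all tested genes, 303 of 16159 were then called higher and 235 lower. Within the sets with little and much Gm42418 the median log2 was 0.25 and 0.46 for the endothelial genes. For the smooth muscle genes it was -0.21 and 0.02. The part of these cell types in the pericyte gene results was not tested.

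**Figure D5:**
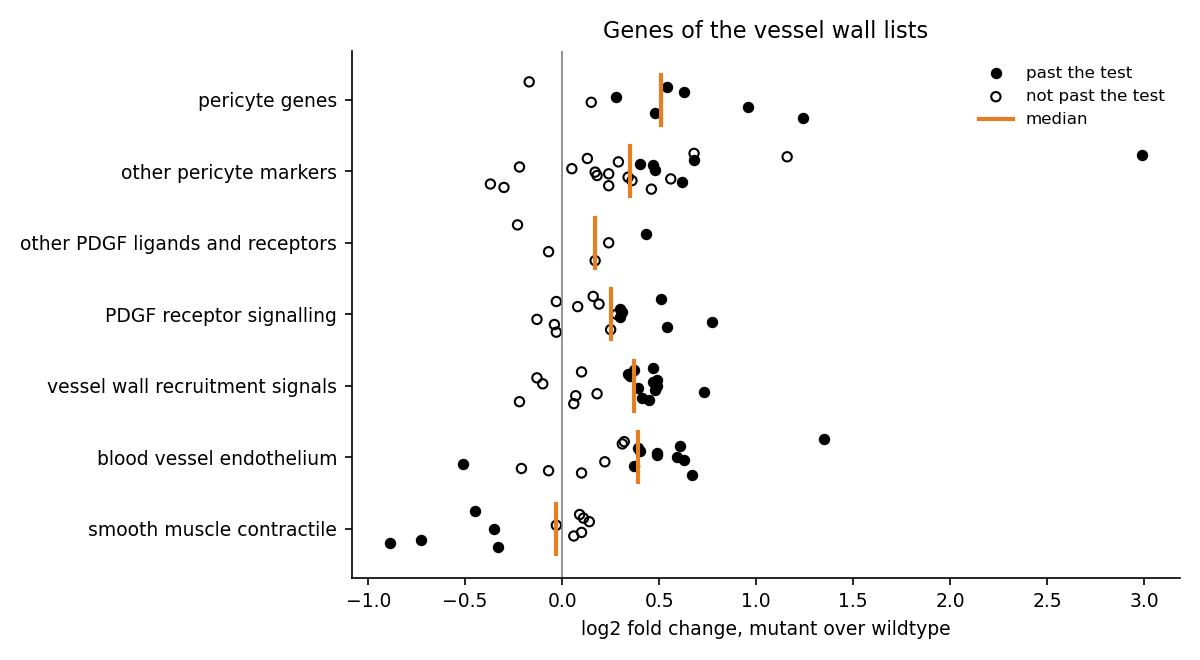
Log2 fold change of mutant over wildtype for every tested gene of the pericyte, PDGF, vessel wall, endothelial and smooth muscle lists (1 circle per gene, filled where it passed the edgeR test), with the list's median in orange. All called genes lie above 0 except Erg in the endothelial list and the 5 called smooth muscle genes.

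Markers of other cell types that use some of the 8 genes were as follows, and their part in the results was not tested. Macrophage and myeloid markers had 4 of 9 higher, Lyz2, Cd68, Itgam and Adgre1, and a summed level of 344 to 482 CPM in mutants against 228 to 242 CPM in wildtypes. Lyz2, the lysozyme gene of myeloid cells, averaged 142 ± 23.9 CPM in mutants and 30.9 ± 0.209 CPM in wildtypes (SD, n = 6 and 3). Its difference in CPM was the largest of the list, so the gap between the sums rests mainly on this gene. Csf1r, C1qa, C1qb, Mrc1 and Cd14 were not called (log2 0.14, 0.12, 0.29, 0.49 and 0.21). Itgam shares 68.7% of its exon length with another gene, and Csf1r 15.1%, so the reads of both are uncertain. Stromal fibroblast and keratocyte markers had 0 of 8 higher and 3 lower (Lum, Kera and Dcn), none of which was called without wildtype 1 (edgeR adjusted p = 0.0708, 0.074 and 0.116). Their sums were 24838 to 44827 CPM in mutants and 34270 to 43620 CPM in wildtypes. Of 9 glial and Schwann cell markers 7 were tested and 2 were higher, Mbp, which was not called without wildtype 1, and Erbb3. Their sums were 183 to 231 CPM in mutants and 159 to 187 CPM in wildtypes. No gene was called among 4 tested platelet markers, which summed to 44.7 to 88.0 CPM in mutants and 57.6 to 66.3 CPM in wildtypes, or among 6 melanocyte markers, with 13714 to 15372 CPM in mutants and 15441 to 16112 CPM in wildtypes (edgeR). At an unadjusted p under 0.05 the platelet and skeletal muscle lists had 0 genes and the melanocyte list 1, DESeq2 called 0 in each, and limma-voom called 2 melanocyte genes and 1 skeletal muscle gene. Of 5 tested cartilage genes 1, Col9a1, was lower, and it was not called without mutant 5 or any 1 wildtype library, nor within either Gm42418 set. The cartilage genes summed to 123 to 209 CPM in mutants and 216 to 236 CPM in wildtypes. Most of these sums was Col9a1, which averaged 132 CPM in mutants and 197 CPM in wildtypes. Col2a1, Acan, Sox9 and Matn3 were not called (log2 0.20, 0.05, 0.29 and -0.30). Skeletal muscle genes were scarce, at 2.78 to 9.73 CPM in mutants and 3.02 to 4.90 CPM in wildtypes, with Tnnc2, which shares 74.0% of its exon length with another gene, at 0 in all libraries and 0 of 6 tested genes called (edgeR). Surface epithelium genes summed to 6482 to 7692 CPM in mutants and 6885 to 7797 CPM in wildtypes, and 1 of 6, Trp63, was higher, though not without mutant 3, mutant 5, wildtype 1 (log2 0.21) or wildtype 3.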

How the data were processed

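RNA was sequenced in bulk from 9 pools of anterior segments. The authors deposited 1 table of raw counts, whole reads per Ensembl gene and library, not normalized. The tools named per the submitters' processing notes are HTSeq 0.6.1, STAR 2.6.1 and DESeq2 1.6.3, and the build is GRCm38. The annotation release and strand setting behind the counts were not given in the sources used here. Symbols, positions and exon lengths came from GENCODE M21 (GRCm38), and 34490 of 35275 identifiers matched. Promoter windows came from RefSeq (GRCm38.p6), and 6 of the 8 genes had one.

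Counts were tested with edgeR 4.0.16 in R 4.3.3: TMM scaling, the default filter on low counts, a robust quasi-likelihood fit on genotype alone, and Benjamini-Hochberg adjustment at 0.05. CPM uses TMM library sizes, and log2 ratios a prior count of 0.5. The members, lists and tests were chosen with earlier results of these data known. Named were the 8 genes, up to 4 genes with the lowest p of each other list (for other cell types, those called), and 3 profile neighbours of each called gene with a mean of at least 1 CPM. Abcc8, Tnnc2 and the uncalled genes named from the pericyte, vessel wall signal, myeloid and cartilage lists were added after their values were seen. The tests were tried on simulated data first. No batch is labelled. Alternatives were other scaling, DESeq2 1.42.0, limma-voom (limma 3.58.1), other filters, a replicate block, removal of a smooth exon length trend (mgcv 1.9.3), a covariate for the Gm42418 share and leaving out each library. No 2 libraries of a group agreed within sampling noise (chi-square test of counts), so each is 1 replicate.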

Additional observations from a re-analysis of the deposited data

Results flagged for a closer look

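The check covered 64 groups of mutant libraries, over the 4 ratios and the genes named, except those added later. Of these groups 3 had 1 library far from the other 5, and in each that library was mutant 4. Chance flags about 1 in 20 such groups when they are independent. These groups share the same 6 libraries, so that rate is only a guide, and the cause of the flags was not tested. Lrp1 stood at 596 CPM there, against 348 to 430 CPM in the other mutant libraries and 216 to 282 CPM in wildtypes. Sos1 stood at 59.0 CPM, against 36.3 to 43.6 CPM in the other mutants and 29.4 to 32.0 CPM in wildtypes, and Ckap5 at 115 CPM, against 77.9 to 86.0 and 54.9 to 76.9 CPM. None of the 8 pericyte genes was flagged, although mutant 4 was also the highest library for Abcc9, Cspg4, Pdgfrb and Anpep.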

How the results depend on the processing

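Abcc9, Cspg4, Pdgfb and Pdgfrb kept direction and call, and Kcnj8 and Rgs5 their direction and lack of a call, in all 21 alternatives, of which the 2 within the Gm42418 sets were added after seeing the data. Anpep lost its call with the covariate for the Gm42418 share (log2 0.51, adjusted p = 0.0873), with exon length removed (0.48) and within the set with little Gm42418 (0.01), and ran from 0.31 to 0.68 with 1 library left out. Mcam lost its call with library totals only (0.26), with the covariate (0.27) and within the sets (0.09 and 0.41), and ran from 0.23 to 0.33. The cause was not tested. The number of pericyte genes called was 4 to 6. Called genes numbered 3034 in all (edgeR), 4694 with limma-voom, 1877 with the covariate, 400 within the set with little Gm42418 and 1150 within the other, and 538 to 3265 with 1 library left out (538 without wildtype 1, 1669 without wildtype 3). The genes called in the other 15 lists numbered 52, against 16 and 22 within the 2 sets and 17 to 56 with 1 library left out. With 1 library left out, the log2 difference of Abcc9 over Kcnj8 ran from 0.96 to 1.23, of Rgs5 over Cdh5 from -0.96 to -0.80, of Pdgfrb over Cdh5 from -0.17 to -0.10 and of Pdgfrb over Pdgfb from -0.14 to 0.00, the last without wildtype 2. Without any 1 wildtype library 28 splits remain, the smallest exact p is 0.0357, and the first 2 ratios had an adjusted p of 0.0714. Kcnj11, far from the threshold, changed sign with limma-voom (0.25), the replicate block (0.05), without mutant 4 (0.00) or wildtype 2 (0.32) and within the larger Gm42418 set (0.17), and ran from -0.34 to 0.32 with 1 library left out. Low counts limit what can be said of Kcnj11, Abcc8 and Vtn, each under 1 CPM.

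Replicate numbers 1 to 3 are shared by both groups. The deviations of same-numbered libraries from their group means correlated at only 0.0947, 0.0258 and -0.104 over genes. These values show no pairing but cannot exclude it. The Gm42418 share was high in mutant 1 and wildtype 1 (5.01% and 4.54%) and low in mutant 2 and wildtype 2 (0.0673% and 0.0663%). It differed between mutant 3 and wildtype 3 (4.81% and 0.0708%). With the replicate block 1485 genes were called, 4 of the 8 pericyte genes among them, and Anpep (log2 0.40, adjusted p = 0.134) and Mcam (0.30, adjusted p = 0.0681) were not.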
